A study of Homo sapiens with 6 samples.

Results

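Gene deserts are long stretches of the genome that hold no protein-coding gene, and 8850 of the 175323 autosomal sites of open chromatin in the deposited table (5.05%) lay in them. A site was taken as a desert site when its midpoint lay outside every protein-coding gene body and more than 200 kb from the nearest protein-coding gene end, on chr1 to chr22 of GRCh38. No measured value entered this choice among the sites of the table, though most of these sites overlapped a peak called in these libraries. The whole table, with the sex chromosomes, held 181135 sites.

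Open chromatin marks the enhancers, promoters and other sites where regulatory proteins displace nucleosomes, and the Tn5 transposase of ATAC-seq cuts and tags DNA at such sites. Some gene deserts carry enhancers that act over long distances on developmental and blood genes at their borders, and others hold mostly inactive chromatin. Deserts also contain non-coding genes, the satellite-rich flanks of the centromeres and, on the short arms of the acrocentric chromosomes, the repeated genes for ribosomal RNA.

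The cells were K562, a human chronic myeloid leukaemia line with erythroid features, of wild type genotype in every library. They were treated with 25 nM PMA (phorbol 12-myristate 13-acetate, an activator of protein kinase C that drives these cells towards megakaryocytes, the precursors of platelets) for 0, 6 or 72 h, with 2 libraries at each time, and the medium was replaced after 24 and 48 h. The 0 h libraries are the controls of both later times, so both comparisons share them. Libraries were made by Omni-ATAC, and the labels do not say whether the 2 libraries of a time came from separate cultures; p-values then measure only the spread between these samples.

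The libraries held 12258890 to 35548737 counts in sites, and the 72 h libraries were among the deepest. Sites lay at the ends of 7 of 7 erythroid marker genes, 3 of 5 megakaryocyte marker genes and 6 of 9 markers of other cell types, counting a site within 1 kb of a gene end. An open gene end does not show that a gene is expressed.

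Some desert sites overlap the promoter window of a gene without a protein, and 6 of these windows are shown because they carry the patterns described below: 2 strong sites that fell, 2 sites that rose and 2 that fell most at 72 h. Each line gives 300 bases, from 250 before to 50 after the annotated start, read 5′ to 3′ on the gene's strand from RefSeq (GRCh38.p14). Capitals mark 2 motifs searched on both strands, the first being TGAGTCA, which AP-1 factors bind (its reverse complement is TGACTCA). The other is AGATAA, which GATA factors bind, and on the other strand it reads TTATCT. A match describes the letters and is not evidence of binding.

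LINC02226, chr5:8457515-8457814, minus strand: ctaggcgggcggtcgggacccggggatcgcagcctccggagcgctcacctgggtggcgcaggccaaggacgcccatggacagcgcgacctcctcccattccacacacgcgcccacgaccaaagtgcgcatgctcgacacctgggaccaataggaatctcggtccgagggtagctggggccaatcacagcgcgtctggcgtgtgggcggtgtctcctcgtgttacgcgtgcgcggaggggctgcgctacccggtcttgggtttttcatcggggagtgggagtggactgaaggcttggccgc
LINC02882, chr12:74292582-74292881, minus strand: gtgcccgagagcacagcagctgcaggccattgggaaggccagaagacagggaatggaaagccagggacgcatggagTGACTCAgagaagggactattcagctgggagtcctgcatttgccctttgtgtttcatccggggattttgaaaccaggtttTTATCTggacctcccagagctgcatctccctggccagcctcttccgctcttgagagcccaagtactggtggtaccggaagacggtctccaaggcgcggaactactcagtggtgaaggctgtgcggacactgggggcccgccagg
LOC105376369, chr10:4246796-4247095, plus strand: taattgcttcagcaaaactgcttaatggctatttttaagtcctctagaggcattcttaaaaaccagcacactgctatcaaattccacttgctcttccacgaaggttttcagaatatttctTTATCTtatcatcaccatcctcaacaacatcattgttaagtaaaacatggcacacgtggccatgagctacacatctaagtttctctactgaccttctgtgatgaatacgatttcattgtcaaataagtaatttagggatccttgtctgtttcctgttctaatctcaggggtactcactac
LOC124903079, chr12:114933533-114933832, minus strand: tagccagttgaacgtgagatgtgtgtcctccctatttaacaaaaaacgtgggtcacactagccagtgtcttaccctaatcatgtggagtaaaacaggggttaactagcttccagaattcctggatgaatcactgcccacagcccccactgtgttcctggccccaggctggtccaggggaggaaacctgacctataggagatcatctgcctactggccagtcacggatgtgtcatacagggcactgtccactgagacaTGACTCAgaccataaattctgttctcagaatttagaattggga
LOC124903580, chr15:87624213-87624512, plus strand: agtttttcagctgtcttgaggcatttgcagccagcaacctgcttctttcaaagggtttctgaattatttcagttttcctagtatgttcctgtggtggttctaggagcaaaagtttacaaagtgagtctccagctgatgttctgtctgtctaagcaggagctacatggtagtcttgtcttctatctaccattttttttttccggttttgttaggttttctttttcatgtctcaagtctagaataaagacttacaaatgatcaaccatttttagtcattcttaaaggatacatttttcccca
LOC102723678, chr9:61869061-61869360, minus strand: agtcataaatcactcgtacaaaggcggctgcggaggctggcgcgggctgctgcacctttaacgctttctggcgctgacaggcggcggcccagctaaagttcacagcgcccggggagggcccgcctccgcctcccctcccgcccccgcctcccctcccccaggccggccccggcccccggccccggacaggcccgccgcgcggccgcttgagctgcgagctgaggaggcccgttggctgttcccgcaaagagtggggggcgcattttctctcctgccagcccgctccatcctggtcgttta

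The start of LOC124903079 lay in the strongest site of the TBX3 to MED13L desert (peak44953, chr12:114933280-114934117), and its window held 1 AP-1 motif and no GATA motif. Its level in CPM (counts scaled to a common library size, with TMM factors) was 0.455 and 0.717 in the 0 h libraries, 6.90 and 11 at 6 h, then 20.4 and 23.1 at 72 h. The 3 times did not overlap, and each step was upward; among all tested sites the libraries of 0 h and 72 h did not overlap at 84.6%, and those of 0 h and 6 h at 68.0%. Against 0 h the log2 fold change was 3.92 ± 0.32 (SE) at 6 h (edgeR quasi-likelihood adjusted p = 5.26e-09) and 5.16 ± 0.31 at 72 h (edgeR adjusted p = 8.35e-11).

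The start of LOC105376369, with 1 GATA motif, lay in peak20764 (chr10:4246815-4247391) between KLF6, which encodes a zinc finger transcription factor, and AKR1E2. The site had 0.130 and 0 CPM at 0 h, 2.90 and 4.02 at 6 h, then 5.28 and 3.99 at 72 h, so both later times lay above 0 h and overlapped each other. The 0 h libraries held 2 counts together, and the ratio to 0 h was 67.4-fold at 6 h (exact 95% counting interval 18.4 to 561.6) and 83.6-fold at 72 h (23 to 692). Without 0 h library 1, which held both counts, the fitted log2 change moved from 5.89 to 9.66 at 6 h and from 6.27 to 10.09 at 72 h.

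LINC02226 (peak130573, between MTRR and SEMA5A) and LINC02882 (peak42658, between TRHDE and ATXN7L3B) have their windows at the strongest sites of this kind. The LINC02226 site had 58.7 and 66.9 CPM at 0 h, 52.0 and 43.5 at 6 h, then 26.1 and 35.2 at 72 h, a fall by 1.04 on the log2 scale at 72 h (edgeR adjusted p = 7.59e-06). Its 6 h call (log2 fold change -0.40, edgeR adjusted p = 0.0497) was lost without 0 h library 2 (adjusted p = 0.225), without 6 h library 2 (adjusted p = 0.239) and under 5 other settings. The LINC02882 site, with 1 motif of each kind, had 39.0 and 55.5 CPM at 0 h, 34.4 and 44.5 at 6 h, then 22.4 and 28.3 at 72 h, where the log2 fold change was -0.90 (edgeR adjusted p = 0.000149). At 72 h the log2 fold change of both sites was above 0 with loess offsets per library (0.34 at each), and both calls were lost with TMM factors from sites with a peak in all 6 libraries (log2 -0.07 and 0.07, edgeR adjusted p = 0.693 and 0.715).

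The site at the LOC124903580 window (peak60498, chr15:87623795-87624364, between AGBL1 and NTRK3) overlapped bases upstream of the annotated start and not the start itself. It fell from 5.26 and 6.12 CPM at 0 h to 2.39 and 2.72 at 6 h, then 1.53 and 0.967 at 72 h, and the 3 times did not overlap. The LOC102723678 site (peak170331, beside CNTNAP3C) fell from 7.99 and 8.03 CPM to 3.41 and 4.05 and then 2.04 and 1.72. The log2 fold changes at 72 h were -2.20 ± 0.31 and -2.09 ± 0.26 (SE; edgeR adjusted p = 1.97e-06 and 4.23e-07). Neither window held either motif.

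In all, 127 desert sites on chromosome arms overlapped 139 RefSeq promoter windows of 125 genes. An AP-1 motif stood in 18.7% of these windows and in 4.95% of all 35116 windows of the table, or 6.48% of those of genes without a protein. By the call of the site at 72 h, 16 of 57 windows at sites that rose (28.1%), 6 of 42 at sites that fell (14.3%) and 4 of 40 at sites not called (10.0%) held one. A GATA motif stood in 18.7% of the desert windows, beside 10.3% of all windows and 14.6% of those of genes without a protein. Overlapping windows of 1 site share sequence, and no test was run on these shares. The desert windows were chosen for overlap with an open site, and windows at open sites outside deserts were not counted apart. The shares thus do not show a difference between desert and other open sites.

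The desert sites fell into sets that behaved differently, and they are described apart from here on. The 7353 arm sites lay in 556 deserts on chromosome arms, and 1497 lay on the centromere side, in 33 deserts with a site within 3 Mb of a centromere or on an acrocentric short arm. This split was made after the values had been seen. Centromere flanks and short arms hold repeated sequence, where the placement of reads is uncertain, and how the authors treated reads with several placements is not given in the sources used here. K562 also carries many copy number changes, which act on a site's level at all times alike.

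The stretches more than 200 kb from every protein-coding gene numbered 794 between genes, with 605.4 Mb in all, and 213 of them held no site. On the arms, 205 of 757 stretches (27.1%) were empty, and the density was 14.9 sites per Mb. Another 283 desert sites lay between the last gene and a chromosome end. A filled desert held a median of 7 sites, 89 held 1, and 137 with at least 20 sites held 5772 of the members.

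Chromosomes 2, 1 and 8 held most desert sites (971, 964 and 678). As a share of a chromosome's sites they were most frequent on chr21 (13.4%) and chr13 (10.3%), both acrocentric, and least frequent on the gene-dense chr17 (1.87%) and chr19 (1.89%). The median distance to a protein-coding gene was 339 kb, and 898 sites lay over 1 Mb away. The farthest, peak108103 (chr22:10687281-10687483), was 4840810 bases from OR11H1, in LOC124905154 on the short arm of chr22. It was a weak site (0.221 to 0.812 CPM in the 6 libraries) with no call at 6 h or 72 h.

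Far from protein-coding genes does not mean outside every gene: 3305 desert sites (37.3%) lay in the body of a non-coding gene, 2838 of them in a long non-coding RNA gene and 22 in a ribosomal RNA gene. At the limit of 200 kb, the sites just inside were peak43278 between EEA1 and NUDT4 (9.68 and 7.88 CPM at 0 h, 8.54 and 8.32 at 72 h) and peak117061 between PROK2 and RYBP (0.195 and 0.0955, then 1.40 and 1.39). Those just outside were peak122130 between BCL6 and LPP (0.0650 and 0.0955 CPM at 0 h, 1.97 and 2.36 at 72 h) and peak146117 between GRIK2 and HACE1 (1.49 and 0.526, then 0.414 and 0.519). Sites on each side of the limit thus included ones that were higher at 72 h.

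Arm desert sites were weaker than the rest in untreated cells and came closer to it with time. Their median level was 0.780 and 0.669 CPM in the 0 h libraries, 1.11 and 0.917 at 6 h, then 1.66 and 1.67 at 72 h. The other autosomal sites had medians of 1.43 and 1.43, then 1.87 and 1.77, then 2.276 and 2.264. Centromere side sites went the other way, from 2.01 and 1.67 through 1.62 and 1.14 to 1.45 and 1.13, and within each time the library 1 value was the higher.

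The median width of a site was 555 bases on the arms, 450 on the centromere side and 590 elsewhere. The authors' peak calls, a separate readout of the same libraries, fell on all 6 libraries at 10.5% of the arm sites, 20.2% of the centromere side sites and 20.1% of the other autosomal sites. A peak in both 72 h libraries and in no other was found at 1887 arm sites (25.7%), beside 12.8% and 18%. A peak in both 0 h libraries only was found at 1.70%, 1.20% and 1.76% of the 3 kinds of site.

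As a share of all counts in sites, the arm deserts rose from 1.65% and 1.53% at 0 h to 1.94% and 1.81% at 6 h, then 2.63% and 2.64% at 72 h, with no overlap between the times. The centromere side fell from 2.36% and 1.74% to 1.47% and 1.24% at 6 h, and stood at 1.59% and 1.26% at 72 h. Both together therefore overlapped across time, at 4.01% and 3.27%, 3.41% and 3.05%, and 4.22% and 3.90%. Sites in ribosomal RNA genes took 1.18% and 0.769% of all counts at 0 h and 0.523% to 0.697% in the other libraries. With 2 libraries against 2, an exact permutation test cannot go below p = 0.333, so none was run.

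**Figure D1:**
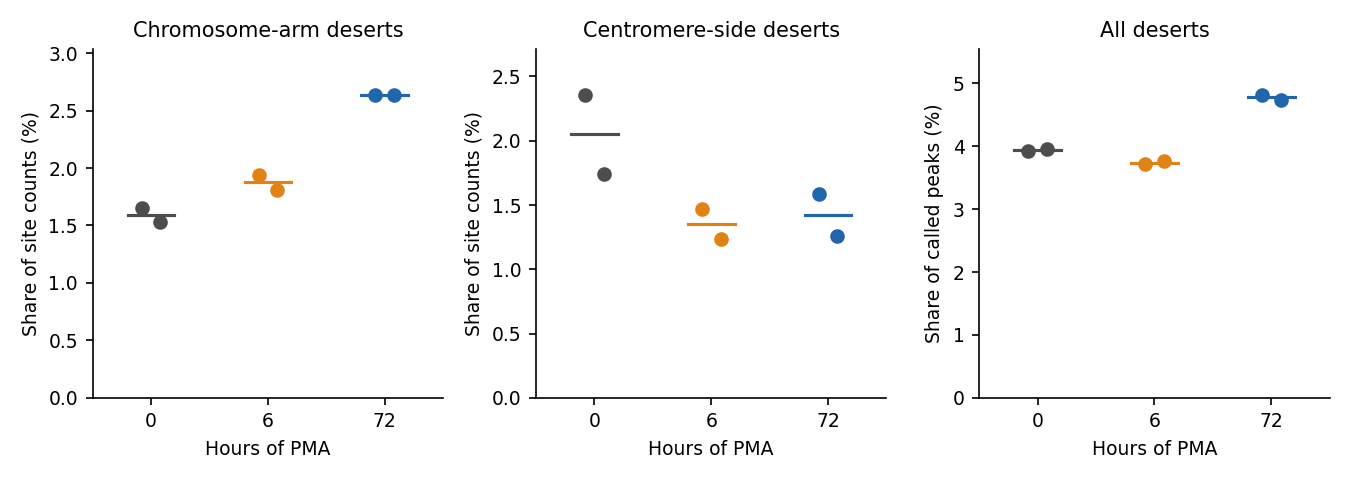
Share of each library's counts in sites, and of its peaks, that fell in gene deserts, against hours of PMA; each point is 1 library and each axis starts at 0. The arm share rises from 1.53% to 1.65% at 0 h to 2.63% and 2.64% at 72 h, while the centromere side share is highest in the 0 h libraries.

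The share of deposited peaks in deserts was 3.93% and 3.95% at 0 h, 3.71% and 3.76% at 6 h, then 4.82% and 4.74% at 72 h, but the 72 h lists were also the longest. In lists limited to the strongest peaks, with nearly equal numbers in each library, the shares were 3.93% and 3.86%, 3.64% and 3.32%, and 3.77% and 3.78%. The higher share at 72 h was thus seen in the full lists and not among the strongest peaks.

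Of the desert sites, 8531 passed the low count filter and were tested together with all other sites of the table (177759 in all), 7081 of them on arms and 1450 on the centromere side. At 6 h against 0 h, 1877 desert sites rose and 1269 fell at an adjusted p under 0.05 (edgeR), beside 23.4% higher and 16.8% lower of all tested sites (40.1% in either direction). On the arms 1795 rose (25.3%) and 992 fell (14%), with a median log2 fold change of 0.25. On the centromere side 82 rose (5.66%) and 277 fell (19.1%), with a median of -0.52. Without 6 h library 2 the number that fell was 798.

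At 72 h against 0 h, 3773 desert sites rose and 2145 fell, beside 38.2% higher and 29.2% lower of all tested sites (67.4% in either direction). The arm sites mostly rose: 3543 were higher (50%) and 1396 lower (19.7%), and the median log2 fold change was 1.11, beside 0.29 for the other autosomal sites. The centromere side sites mostly fell: 230 were higher (15.9%) and 749 lower (51.7%), with a median of -0.91. No test of the difference between desert and other sites was run.

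Between 6 h and 72 h, 2503 desert sites rose and 926 fell, beside 22.1% higher and 20.9% lower of all tested sites. The arm sites again leaned upward (2313 higher, 746 lower, median 0.47), and the centromere side did not (190 higher, 180 lower, median -0.23). Leaving out a single library moved these counts: the higher count was 1627 without 6 h library 2 and 1575 without 72 h library 2, and the lower count was 515 without 72 h library 1 and 414 without 72 h library 2. TMM factors from sites with a peak in all 6 libraries moved them further, to 4340 higher and 179 lower.

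**Figure D2:**
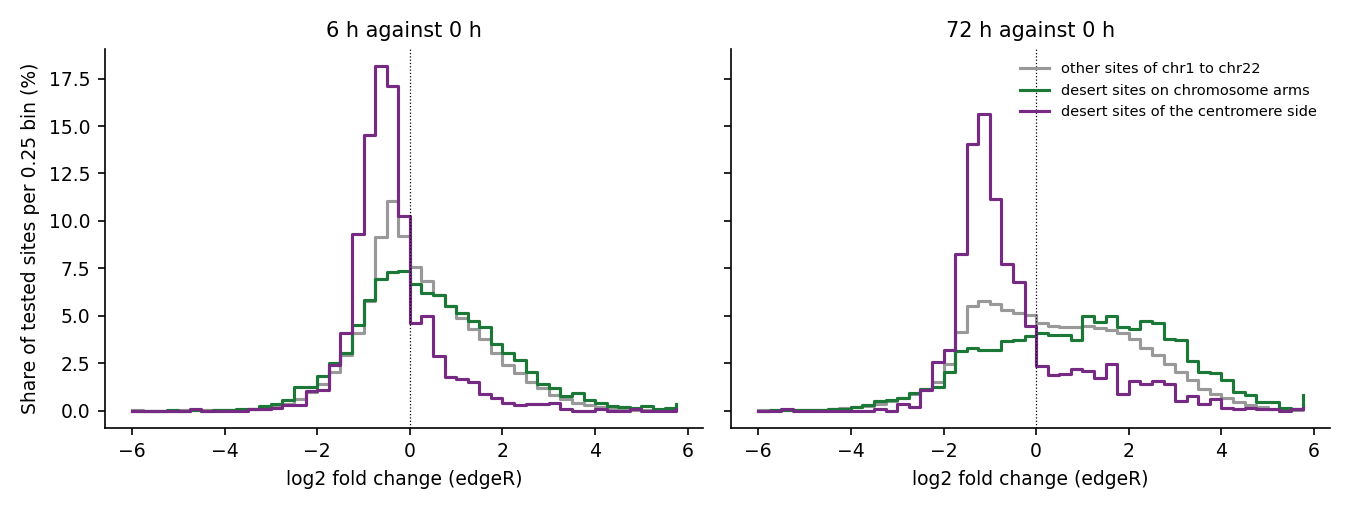
Distribution of log2 fold changes (edgeR) at 6 h and at 72 h against 0 h for tested sites, as the share of sites in bins of 0.25, with values beyond the axis ends in the last bins. At 72 h the arm desert sites (median 1.11) lie to the right of the other autosomal sites (0.29) and the centromere side sites (-0.91) to the left.

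These numbers depend on how the libraries are scaled. Under the 5 other scalings tried, the median log2 change of all tested sites at 72 h ran from -0.04 to 1.26, beside 0.29 here, and that of the arm sites from 0.47 to 2.07. Relative to all sites, the arm median was higher by 0.81 under each scaling that uses 1 factor per library and by 0.51 with loess offsets, which also remove trends with site strength. The centromere side median was below that of all sites by 1.20 and 1.14 in the same order of settings, and it was above 0 (0.06) when the factors came from sites with a peak in all 6 libraries. The share of called desert sites that rose at 72 h was 63.8% here and 51.4% to 89.4% under the other scalings. At 6 h it was 59.7% here and 46.6% to 74.9%.

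The same order was seen at each strength, untested. In each of 5 equal groups of all sites by mean CPM, the median log2 change at 72 h was higher in the arm deserts than in the other autosomal sites: 1.31 against 0.70 in the weakest group, then 1.41 against 0.80, 1.20 against 0.61, 0.60 against 0.34, and -0.26 against -0.85 in the strongest. In both kinds of site the strongest group had the lowest median under TMM scaling. With loess offsets the arm medians were 0.37, 0.68, 0.61, 0.30 and 0.18, again each above those of the other sites.

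Outside gene bodies, the share that rose at 72 h grew with distance to the nearest protein-coding gene up to 300 kb, then declined. Inside gene bodies 37.4% of tested sites rose and 30.7% fell. Median strength went from 2.90 CPM up to 10 kb from a gene end to 1.41 at 200 to 300 kb. The part of strength in these shares was not tested. The centromere side was left out only beyond 200 kb, and the nearer bins held all autosomal sites, those near centromeres included. Of tested sites up to 10 kb from a gene end, 28.5% rose and 40.8% fell. The share that rose was 40.5% at 10 to 50 kb, 47.0% at 50 to 100 kb and 50.7% at 100 to 200 kb, just short of the desert limit. Within the deserts it was 54.2% at 200 to 300 kb, 51.1% at 300 to 500 kb, 41.7% at 500 kb to 1 Mb and 19.5% beyond 1 Mb, where 49.8% of 221 tested sites fell. The shares just inside and just outside the limit of 200 kb thus lay close together, though the centromere side was left out on the inside only.

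By the length of the desert, the longest deserts again had the lowest share of sites that rose. Arm deserts up to 0.25 Mb held 40.4 sites per Mb, of which 60.2% rose and 11.5% fell at 72 h. Those of 0.25 to 0.5 Mb held 28.7 per Mb, of which 53.9% rose and 15.8% fell, and those of 0.5 to 1 Mb held 19.7 per Mb, of which 56.9% rose and 14.4% fell, so the share that rose did not decline at each step. Deserts of 1 to 2 Mb held 9.42 per Mb, with 39.4% higher and 27.6% lower. In the 41 deserts over 2 Mb the density was 4.66 per Mb, and 21.1% rose and 50.8% fell, with a median log2 change of -0.96. Relative to all sites this median was -1.25, and -1.26 to -1.20 under the other scalings. A factor for a whole library moves all sites alike, so only loess offsets could change this relative value much.

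**Figure D3:**
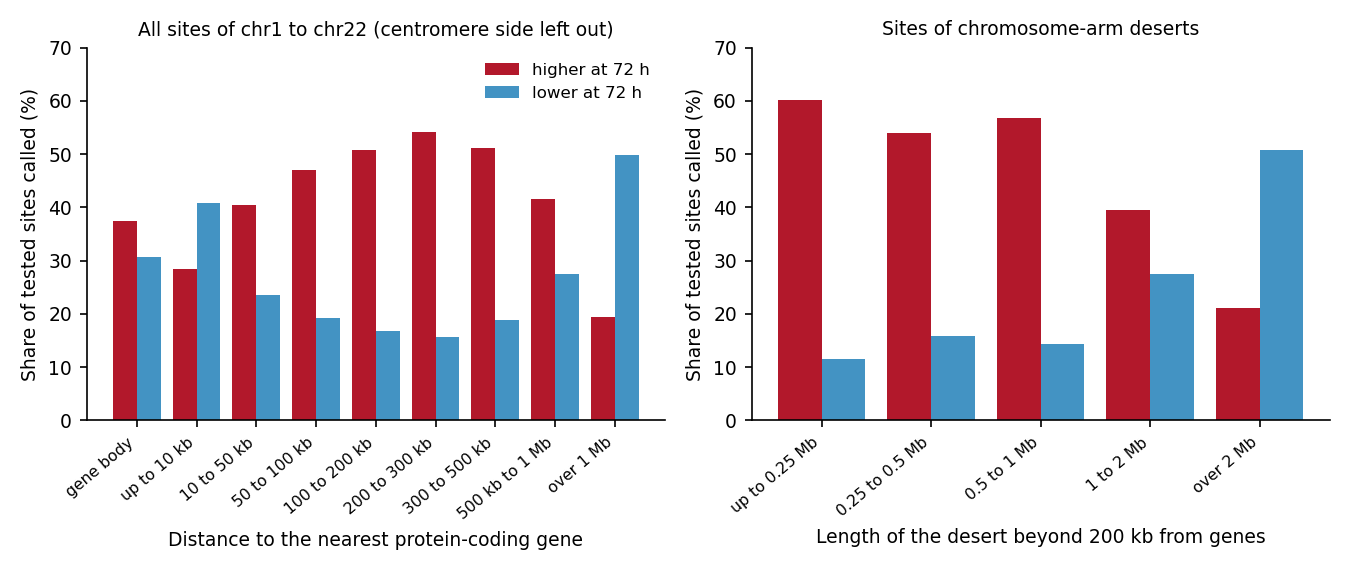
Share of tested sites higher and lower at 72 h against 0 h (edgeR adjusted p under 0.05). The left panel is by distance to the nearest protein-coding gene end, and the right panel by length of the arm desert. On the left, the centromere side is left out only beyond 200 kb. The higher share peaks at 54.2% between 200 and 300 kb, and the lower share is largest beyond 1 Mb (49.8%) and in deserts over 2 Mb (50.8%).

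The authors' deposited table also sorts sites into classes of change. It put 16.3% of the arm desert sites into its late rising class, beside 11.6% of other autosomal sites and 6.08% of centromere side sites. In the authors' deposited table the early falling class held 6.88%, 4.88% and 2.47% of the same sets, and the early rising class 3.84%, 2.96% and 1.14%. The late falling class held 1.62%, 1.07% and 0.27%, and the static class 71.4%, 79.5% and 90.0%. On the centromere side the late rising class was thus larger than either falling class, while here 15.9% rose and 51.7% fell at 72 h. The classes rest on the authors' own criteria, which were not compared with the calls used here.

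Over the 2 intervals, the largest groups of called arm sites were those that rose only by 72 h (1929) and those that were higher at both times (1596). Another 812 were lower at both times, 578 were lower only at 72 h, and 193 were higher at 6 h and not called at 72 h. Calls in opposite directions were rare: 18 arm sites were lower at 6 h and higher at 72 h, and 6 the reverse. On the centromere side 501 of 1450 sites were lower only at 72 h and 248 at both times. Since both comparisons use the same 0 h libraries, an extreme 0 h value moves both calls together. These patterns were not counted over all tested sites, so they do not show what is particular to deserts.

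Desert sites stood in clusters, though arm sites did not lie closer together than sites elsewhere. The median spacing of neighbours was 8.37 kb on the arms, 5.97 kb on the centromere side and 6.06 kb among other autosomal sites. Shares in clusters were not counted for the other autosomal sites. Joining neighbours at most 10 kb apart put 71.3% of the arm sites into 1521 clusters of 2 or more, and 28.3% into clusters of 5 or more. On the centromere side the shares were 82.6% and 49.8%. Steps of 5 kb gave 53.3% and 63.3% in clusters, and steps of 20 kb gave 83.1% and 90.5%.

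The largest cluster on an arm was 33 sites over 131.8 kb (chr8:127959951-128091764), downstream of MYC, which encodes a growth-promoting transcription factor. Its summed level was 238 and 249 CPM at 0 h, 184 and 223 at 6 h, then 133 and 128 at 72 h. Of its sites 7 rose and 12 fell at 72 h, beside 38.2% and 29.2% of all tested sites. A cluster of 27 sites between IRF2BP2 and TOMM20 was followed by one of 24 sites over 71.1 kb between CD83 and JARID2. The latter held 45.9 and 43.8 CPM at 0 h, 139 and 140.4 at 6 h, then 123.5 and 113.2 at 72 h, with 18 sites higher and 1 lower at 72 h. The other large clusters, with 32, 29 and 28 sites, lay in the centromere flank of chr1, with another of 29 sites on chr19.

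Neighbouring desert sites mostly moved the same way. Of 1881 pairs of arm neighbours up to 10 kb apart that were both called at 72 h, 1589 (84.5%) had the same direction. On the centromere side 415 of 462 pairs did (89.8%), and among other autosomal sites 70.6% did. For neighbours over 50 kb apart the shares were 72.9%, 77.8% and 62.6%. At 6 h the shares for close neighbours were 76.4%, 78.6% and 65.3%. A set in which most calls point 1 way gives a high share by itself, so the shares are not comparable between the sets.

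Counts summed over each desert were tested together with the sums of the stretches between deserts. At 6 h, 165 of 575 tested deserts rose and 137 fell, beside 19.8% higher and 28.4% lower of all 1162 stretches. At 72 h, 260 rose and 174 fell, beside 29.3% and 50.8%. Between 6 h and 72 h, 202 rose and 102 fell, beside 23.6% and 41.6%. Of the 542 arm deserts, 254 were higher and 150 lower at 72 h. Among 236 tested arm deserts with at least 10 sites, 182 held sites called in each direction at 72 h. Of all tested arm sites 50% were higher and 19.7% lower, so a desert of many sites would often hold both. Without 72 h library 1, the count of deserts lower at 72 h than at 6 h was 64.

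The TBX3 to MED13L desert (chr12:114884176-115758575, 106 sites) changed as a block. TBX3 encodes a T-box transcription factor of limb, heart and breast development, and MED13L a subunit of the Mediator complex. Its summed level was 51.9 and 50.7 CPM at 0 h, 121 and 152 at 6 h, then 403 and 431 at 72 h. The times did not overlap, and the log2 fold change was 1.42 ± 0.10 (SE) at 6 h, then 3.02 ± 0.11 at 72 h (edgeR adjusted p = 6.26e-11 and 3.36e-17). At 72 h, 99 of its 105 tested sites rose and none fell, beside 38.2% and 29.2% of all tested sites. At 6 h, 28 rose and 1 fell, beside 23.4% and 16.8%. Peaks stood at 78 of its sites in both 72 h libraries and at 0 sites in both 0 h libraries. The LOC124903079 window printed above lies in its strongest site, which held 5.07% and 5.35% of the desert's CPM at 72 h.

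The other deserts with the largest rises also held many weak sites that rose together. The SOX9 to SLC39A11 desert (chr17:72326417-72445948, 25 sites), beside the gene for a transcription factor of cartilage and testis, went from 10.3 and 9.65 CPM to 37.2 and 41.3 at 6 h, then 146 and 152 at 72 h. This is a log2 fold change of 3.90 ± 0.14 (SE; edgeR adjusted p = 3.89e-17), and 23 of 24 tested sites rose. The VRK1 to BCL11B desert (chr14:97081610-98969286, 66 sites), beside a regulator of T cell identity, went from 24.1 and 22.4 CPM to 76.1 and 72.5 and then 215 and 211, and 57 of 63 tested sites rose. The NDFIP2 to SPRY2 desert (37 sites) borders the gene of an inhibitor of receptor tyrosine kinase signalling. Its level was 14.3 and 10.6 CPM, then 51.6 and 42.0, then 109.6 and 111.

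In these 3 deserts no site fell at 72 h and no site had a peak in both 0 h libraries. In the NLRP1 to WSCD1 desert (14 sites) the level went from 3.25 and 3.25 CPM to 36.5 and 38.6 at 72 h, and in the BUB3 to GPR26 desert (6 sites) from 2.21 and 2.82 to 20.1 and 21.7. The log2 changes of these at 72 h were 3.53 and 3.04.

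**Figure D4:**
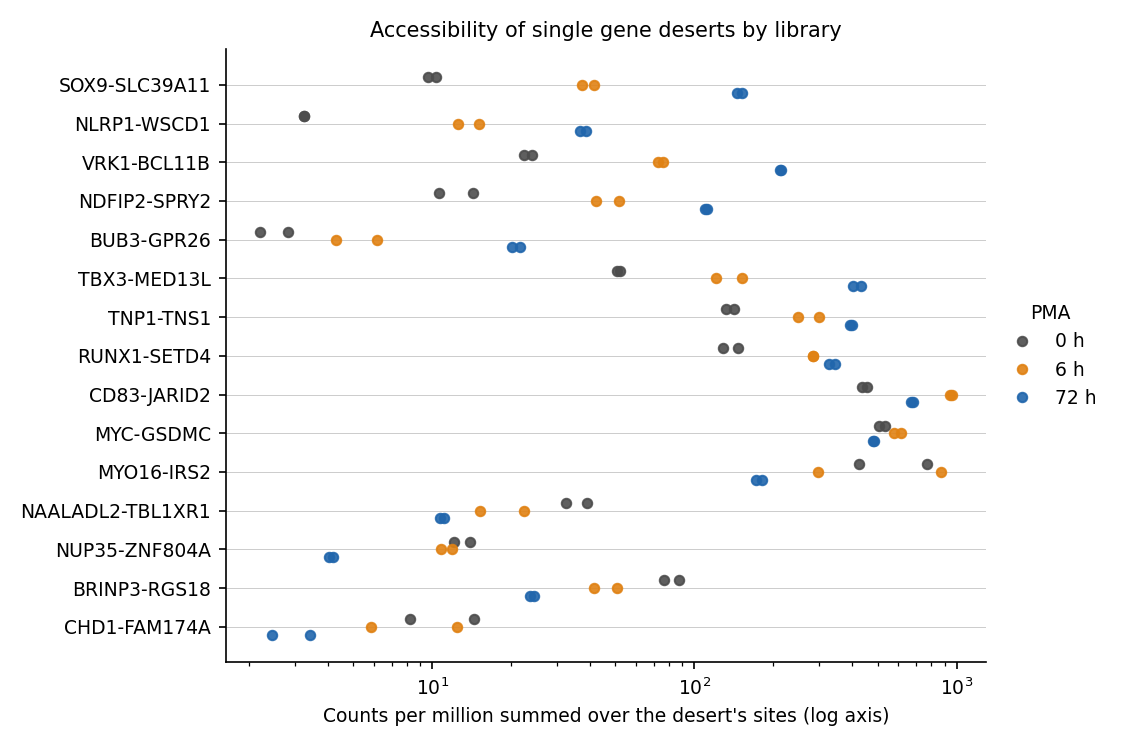
Summed CPM of single gene deserts in each library (log axis), by hours of PMA. The TBX3 to MED13L and SOX9 to SLC39A11 deserts lie further to the right at each later time, BRINP3 to RGS18 lies further to the left, and CD83 to JARID2 is highest at 6 h.

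**Figure D5:**
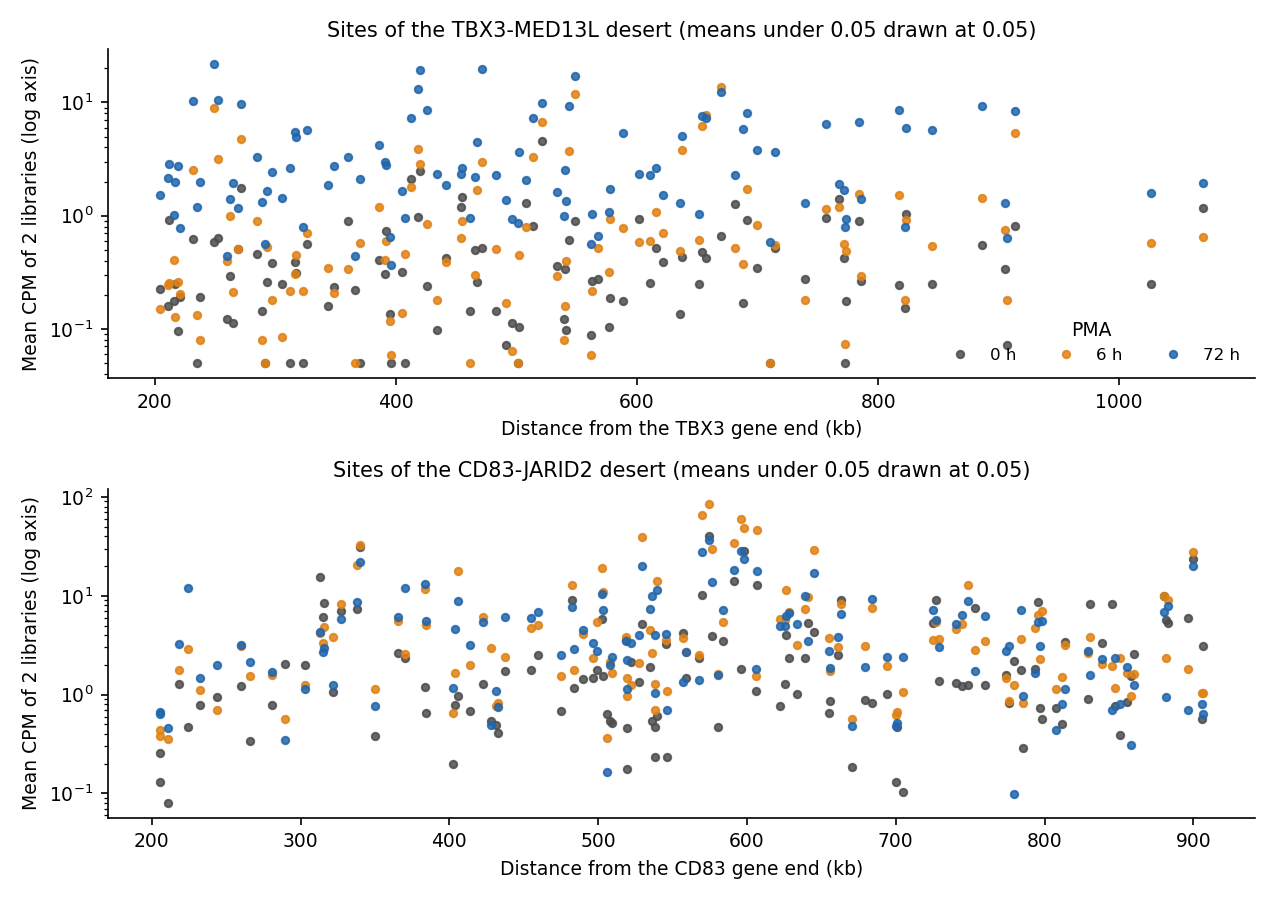
Mean CPM of the 2 libraries of each time (log axis) for each site of single deserts, against the distance from the named gene's end; means under 0.05 are drawn at 0.05. In the TBX3 to MED13L desert 99 of 105 tested sites are higher at 72 h, while CD83 to JARID2 holds 73 higher and 21 lower sites.

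The arm deserts beside blood genes that held most sites moved in other ways. The CD83 to JARID2 desert (chr6:14336919-15046068, 127 sites) went from 457 and 435 CPM at 0 h to 943 and 957 at 6 h, and stood at 685 and 672 at 72 h. It was thus highest at 6 h, with log2 fold changes of 1.09 ± 0.07 at 6 h, then 0.61 ± 0.07 (SE) at 72 h (edgeR adjusted p = 5.15e-12 and 1.24e-08). CD83 encodes a surface protein of activated immune cells, and JARID2 a partner of the Polycomb complex. The RUNX1 to SETD4 desert (78 sites) borders the gene for a regulator of megakaryocyte formation. The sum rose from 147 and 128 CPM to 282 and 283 at 6 h, then 344 and 326 at 72 h, with 46 sites higher and 8 lower at 72 h.

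The MYC to GSDMC desert (chr8:127942952-129505434, 157 sites) was the arm desert with most sites, and its sum was not called at 72 h. It held 532 and 508 CPM at 0 h, 576 and 616 at 6 h, then 482 and 478 at 72 h. The log2 fold change was 0.20 at 6 h (edgeR adjusted p = 0.0235) and -0.11 at 72 h (edgeR adjusted p = 0.136). The 6 h call was lost without 0 h library 1, 0 h library 2 or 6 h library 2 (adjusted p of 0.0569, 0.191 and 0.212) and with RLE size factors (log2 0.05). Within it 62 of 154 tested sites rose and 33 fell at 72 h, beside 38.2% and 29.2% of all tested sites.

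PTPRU to MATN1 (104 sites) was another arm desert with many sites. It rose from 189.8 and 196 CPM to 329.6 and 363 at 72 h (log2 0.84). Its 6 h call (log2 0.32) was lost with RLE size factors. The TNP1 to TNS1 desert (91 sites) rose from 131 and 142 CPM to 248 and 299.8 at 6 h, then 392 and 401 at 72 h, and 69 of 90 tested sites rose and none fell at 72 h. KLF4 to ACTL7B (84 sites), beside the gene for a zinc finger factor of stem cells and monocytes, rose from 200.1 and 199.6 CPM to 333 and 347. MCTP2 to NR2F2 (80 sites) fell from 308 and 282 CPM to 208 and 229 at 72 h (log2 -0.44), and had a log2 fold change above 0 under 2 other scalings. Of its 78 tested sites 27 were higher and 21 lower at 72 h, beside 38.2% and 29.2% of all tested sites.

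The deserts that fell most on the arms held few sites. BRINP3 to RGS18 (chr1:190677865-191958461, 19 sites) fell from 87.3 and 76.6 CPM to 50.5 and 41.4 at 6 h, then 23.7 and 24.5 at 72 h, a log2 fold change of -1.77 ± 0.14 (SE; edgeR adjusted p = 7.17e-11), and 12 of its sites fell and none rose. Its strongest site, peak15609, went from 20.6 and 13.8 CPM to 2.41 and 1.74. CHD1 to FAM174A (7 sites), NAALADL2 to TBL1XR1 (9 sites) and NUP35 to ZNF804A (9 sites) fell by 1.94, 1.71 and 1.66 on the log2 scale at 72 h. In the MYO16 to IRS2 desert (5 sites) the sum fell by 1.76 at 72 h, but 3 of the sites rose and 1 fell. This call was lost with factors from sites with a peak in all 6 libraries (log2 -0.80, edgeR adjusted p = 0.0776). A single site, peak49676, held 92.4% to 98.7% of its CPM. At 6 h, where this desert had no call, its log2 fold change turned from -0.03 to 0.55 without 6 h library 2.

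The centromere side held the strongest desert sites of the table. Of the 8 strongest, 7 lay at chr21:8205153-8447008 on the short arm, 6 of them in the RNA45S genes, which encode the precursor of ribosomal RNA. The strongest, peak105735 (chr21:8217420-8220027), had 1566 and 1136 CPM at 0 h, 691 and 693 at 6 h, then 667 and 554 at 72 h. Both 0 h libraries lay above the later ones and differed between themselves. The 7 sites fell by 0.91 to 1.02 (log2) at 6 h, and at 72 h they fell by 1.14 to 1.21 (largest edgeR adjusted p 2.07e-05 and 3.94e-07). With factors from sites with a peak in all 6 libraries the 72 h call of peak105735 was lost (log2 -0.18, edgeR adjusted p = 0.180). These genes exist in many near-identical copies, of which the assembly holds few, so the counts cannot be assigned to single copies.

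The surrounding desert, LOC102723475 to LOC101927345 (chr21:8029633-9160008, 98 sites), held 17848 and 12255 CPM at 0 h, 8303 and 7964 at 6 h, then 7958 and 6355 at 72 h. At 72 h 54 sites fell and 18 rose. The log2 fold change at 6 h was -0.89, and -0.59 without 0 h library 1. At 72 h it was -1.07, and it was no longer called with factors from sites with a peak in all 6 libraries (log2 -0.11, adjusted p = 0.527). The eighth of the strongest sites, peak117319 (chr3:93470195-93470995), lay beside the centromere of chr3. It had 986 and 672 CPM at 0 h, 796 and 387 at 6 h, then 247 and 121 at 72 h, which gave -2.17 ± 0.26 (SE) as the log2 change by 72 h.

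The desert with most sites of all, LINC02798 to H3-7 (chr1:121663130-143702385, 461 sites), spans the centromere of chr1. Its sum was 1839.6 and 1404 CPM at 0 h, 1553 and 857 at 6 h, then 967 and 584 at 72 h. Library 1 was the higher at each time, and the 6 h libraries overlapped those of 0 h. The log2 fold change was -0.43 at 6 h (edgeR adjusted p = 0.0513) and -1.06 at 72 h (edgeR adjusted p = 1.01e-05), and 342 sites fell and 13 rose at 72 h. The call at 72 h was lost when scaled to total counts (log2 -0.56, adjusted p = 0.120) and with factors from sites with a peak in all 6 libraries (log2 -0.10).

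The other named deserts with many sites around centromeres, 3 in number, had sums that fell with smaller differences between libraries. ZNF254 to UQCRFS1 on chr19 (97 sites) went from 438 and 415 CPM to 294 and 293 at 6 h, then 278 and 286 at 72 h. ZNF337 to LOC124904970 on chr20 (86 sites) went from 687 and 656 to 463 and 425 and then 376 and 409.9. KCNJ18 to WSB1 on chr17 (86 sites) went from 476 and 447 to 402 and 341 and then 282 and 255, and its 6 h call was lost without 6 h library 2 (log2 -0.20, adjusted p = 0.100), when scaled to total counts (log2 -0.18) and with factors from sites with a peak in all 6 libraries (log2 -0.02). In all 3 the log2 change at 72 h was above 0 with factors from sites with a peak in all 6 libraries.

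The strongest arm sites, added to the description after their values were seen, mostly fell at 72 h. Peak152173 (between NPVF and NFE2L3) had 152 and 167 CPM at 0 h, 119.9 and 116 at 6 h, then 45.9 and 52.6 at 72 h, a log2 fold change of -1.70 ± 0.13 (SE; edgeR adjusted p = 7.26e-10). Its 6 h call (log2 -0.44) was lost without 0 h library 2 (adjusted p = 0.0569). Peak117233, in LINC02018 between CNTN3 and FRG2C, went from 133 and 133 to 92.5 and 93.5 and then 37.8 and 47.6. Peak19509 (between IRF2BP2 and TOMM20) was level at 6 h, at 80.4 and 85 CPM against 82.8 and 83.7, and fell to 36.9 and 39.1 by 72 h.

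Peak140911 between CD83 and JARID2 was the exception, at 37 and 43.5 CPM, then 85.1 and 84.3, then 33.1 and 39.5: it rose at 6 h (log2 1.07 ± 0.15, SE; edgeR adjusted p = 4.48e-06) and had no call at 72 h. Peak49676 (between MYO16 and IRS2) differed most between its own libraries, with 761 and 414 CPM at 0 h, 865 and 289.6 at 6 h, then 167 and 159 at 72 h. A like spread was seen at peak73576 (90.8 and 42.8, 95.2 and 31.3, 13.1 and 13.8), which lies in MTCO1P40, a nuclear pseudogene of a mitochondrial gene. Both fell at 72 h (log2 -1.85 and -2.31) and neither was called at 6 h. Under loess offsets the sign turned at 72 h for peak152173, peak117233, peak19509 and peak49676, as for the ribosomal site peak105735 and for peak117319. The 72 h call of peak19509 was also lost with factors from sites with a peak in all 6 libraries (log2 -0.16, edgeR adjusted p = 0.232).

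The largest rises at 6 h were still above 0 h at 72 h, at a lower level at some sites. Peak28848 (chr10:130718599-130719836, between LOC124902561 and TCERG1L) had 0.455 and 0.382 CPM at 0 h, 21.9 and 20.5 at 6 h, then 4.01 and 6.79 at 72 h. On the log2 scale the change was 5.66 ± 0.35 (SE) at 6 h, then 3.69 ± 0.36 at 72 h (edgeR adjusted p = 1.29e-10 and 1.89e-08). Peak42719, between KRR1 and PHLDA1, had 0.975 and 0.191 CPM, then 19 and 21.1, then 11.2 and 11.4. Peak42973, between KITLG (the ligand of the KIT receptor) and DUSP6 (a phosphatase that inactivates ERK), had 0.780 and 0.191, then 18.6 and 14.5, then 9.47 and 11. Peak129895, between TRIML1 and FRG1, had 0.390 and 0.191, then 11.5 and 8.69, then 8.33 and 9.17. At these 4 sites no 0 h library overlapped a later one. For 6 h this was a condition of the choice. Among all tested sites the libraries of 0 h and 6 h did not overlap at 68.0%, and those of 0 h and 72 h at 84.6%. From 6 h to 72 h the first 3 fell (edgeR adjusted p = 1.95e-06, 0.00725 and 0.0258), and peak129895 was not called.

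The largest rises at 72 h started from almost no counts, so they are given as ratios with exact 95% counting intervals. Peak53290, in LINC02296 between FLRT2 and GALC, had 0 and 0.0478 CPM at 0 h, 0.937 and 0.253 at 6 h, then 3.21 and 2.78 at 72 h, a ratio of 108 (19.3 to 4300). Peak64229, between HS3ST4 and C16orf82, had 0.0650 and 0, then 0.511 and 0.443, then 2.56 and 2.57, a ratio of 93.2 (16.5 to 3698). Peak65565, between IRX3 and IRX5, both homeobox genes, reached 3.41 and 4.03 CPM, a ratio of 67.9 (18.6 to 563). Peak28784, between MKI67 and MGMT, reached 4.81 and 5.94, a ratio of 65.4 (22.2 to 318). Leaving out 0 h library 2, which held the only counts, moved the fitted log2 change of peak65565 from 5.97 to 9.70 and that of peak28784 from 5.96 to 10.23.

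Of the largest falls at 6 h, some were partly regained by 72 h. Peak170189 (between SPATA31A1 and FOXD4L6, members of duplicated gene families) had 40 and 35.5 CPM at 0 h, 4.35 and 3.26 at 6 h, then 8.79 and 10.8 at 72 h. On the log2 scale the change was -3.35 ± 0.21 (SE) at 6 h and -1.94 ± 0.19 at 72 h (edgeR adjusted p = 2.07e-10 and 1.52e-08). Peak117990, between LSAMP and IGSF11, had 11 and 7.07, then 1.28 and 0.727, then 1.68 and 2.62. Peak95117, between NXPH2 and LRP1B, had 8.25 and 3.44, then 0.682 and 0.411, then 0.750 and 0.189. From 6 h to 72 h peak170189 and peak117990 rose (edgeR adjusted p = 1.94e-05 and 0.0118), and peak95117 was not called (adjusted p = 0.902).

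The largest falls at 72 h were stepwise. Peak87026, in MIR3681HG between LPIN1 and TRIB2, had 6.56 and 6.31 CPM at 0 h, 2.30 and 1.01 at 6 h, then 0.233 and 0.0472 at 72 h (log2 -5.51 ± 0.49, SE). Peak82706, on the centromere side of chr19, had 14.9 and 12, then 4.01 and 4.87, then 0.362 and 0.236 (log2 -5.48). Peak112453, between EDEM1 and GRM7, had 15.3 and 9.65, then 1.87 and 1.14, then 0.491 and 0.189 (log2 -5.19). At each of these sites the 3 times did not overlap. Between 0 h and 72 h this was a condition of the choice. Among all tested sites 84.6% had no overlap there, 68.0% had none between 0 h and 6 h, and 73.1% none between 6 h and 72 h.

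From 6 h to 72 h the largest rise was at peak65284 between N4BP1 and CBLN1, with 0.130 and 0.526 CPM at 0 h, 0 and 0.158 at 6 h, then 6.85 and 6.23 at 72 h. The fitted log2 change from 6 h was 5.80, and 10.40 without 6 h library 2, which held all 5 counts of that time. In the CD83 to JARID2 desert 34 of 127 tested sites fell and 19 rose on this interval. Of all tested sites 20.9% fell and 22.1% rose. Among the 3 largest falls on this interval was peak140949, in that desert. It had 2.01 and 2.34 CPM, then 1.28 and 1.20, then 0.103 and 0.0943, and was not called at 6 h.

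Sorted by the nearest protein-coding gene, desert sites beside listed developmental regulators mostly rose at 72 h, and those beside listed adhesion and synapse genes were lower more often than higher. The lists were written with earlier results of these data known. For 50 developmental transcription factors and signals, 26 had desert sites nearest to them, 387 in all. Of 375 tested sites 85 rose and 36 fell at 6 h, and 239 rose (63.7%) and 42 fell (11.2%) at 72 h, with a median log2 change of 1.83. Of all tested sites 38.2% rose and 29.2% fell at 72 h, and of the arm desert sites 50% and 19.7%. At 6 h 22.7% of the list's sites rose and 9.6% fell, beside 23.4% and 16.8% of all tested sites. The share that rose at 6 h was thus near that of all sites. The sites nearest TBX3 gave 74 of the 239 rises, and of the other 298 tested sites 165 rose (55.4%). Near TBX3, 74 of 77 sites rose at 72 h (median 3.14), near SOX9 13 of 14 (3.50), near SOX2, a factor of stem cells, 10 of 14 (2.27), and none of these fell. Near ID2, an inhibitor of helix-loop-helix factors, 33 of 55 rose and 8 fell, and near NR2F2, a nuclear receptor gene, 18 rose and 15 fell.

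For 32 blood cell regulators, 15 had desert sites nearest to them, and of 330 tested sites 118 rose and 43 fell at 6 h, then 143 rose (43.3%) and 71 fell (21.5%) at 72 h (median log2 0.70). The share that rose at 72 h thus lay between that of all tested sites (38.2%) and that of the arm desert sites (50%). Near MYC 44 of 102 rose and 23 fell at 72 h. Near RUNX1 21 of 46 rose and 7 fell, and near SATB1, a chromatin organiser of lymphoid cells, 8 of 11 rose and none fell. Near DUSP6 more sites rose at 6 h (13 of 20) than at 72 h (9), and 8 fell between the 2 times.

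For 52 cell adhesion and synapse genes, 33 had desert sites nearest to them. Of 242 tested sites 27 rose (11.2%) and 73 fell (30.2%) at 6 h, beside 23.4% and 16.8% of all tested sites. At 72 h 46 rose (19%) and 122 fell (50.4%), beside 38.2% and 29.2%. The median log2 change at 72 h was -0.92, and 0.04 with factors from sites with a peak in all 6 libraries. Relative to all sites it was -1.21 here and -1.24 to -1.21 under the other scalings, of which only loess offsets could move it much. Near GPC5, a heparan sulphate proteoglycan gene, 21 of 29 sites fell and none rose (median -1.99). Near NCAM2, a neural adhesion molecule gene, 18 of 25 fell and 3 rose (median -1.53), and near SLITRK1 10 of 13 fell. The cadherin gene CDH4 was different, with 10 of 15 sites higher and none lower (median 2.76). These lists differ in how long and how sparse their deserts are, and the part of that in the difference was not tested.

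Levels at desert sites are low, which limits what single sites can show: the median desert site held 14 to 17 counts in the 0 h libraries and in 6 h library 1, 30 counts in 6 h library 2 and 63 and 67 at 72 h. The intervals given cover counting error only, since PCR duplicates were handled upstream in a way not given in the sources used here.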

How the data were processed

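ATAC-seq was analysed in 6 K562 libraries, 2 each at 0, 6 and 72 h of PMA. The deposited table holds raw counts per site and library, and the authors' log2 fold changes, adjusted p-values and change classes, per the file headers. The deposited peak lists, 1 per library, hold the authors' score, fold enrichment and −log10 p and q. The submitters' processing notes name hg38, Trim Galore 0.4.3, BWA 0.7.17, SAMtools 1.9, deepTools 3.0.1, MACS2, bedtools 2.26 and DESeq, with no role; filters on mapping quality and duplicates are not given in the sources used here.

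Gene positions came from the RefSeq table (18973 autosomal protein-coding genes; 153 scaffold rows left out). Counts were tested in R 4.3.3 with edgeR 4.0.16 (filterByExpr with a minimum count of 10, TMM, quasi-likelihood test on all 6 libraries, Benjamini-Hochberg adjusted p under 0.05), on 177759 sites and on counts summed over whole stretches. The code was tested on simulated data. Alternatives were other scalings, no filter, DESeq2 1.42.0, a stricter threshold, the replicate number as a block, other distance limits and each library left out. CPM used TMM-scaled library sizes.

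The members and lists were chosen with earlier results of these data known. Named sites were the 8 strongest, the 6 largest rises and falls at 6 h and at 72 h (mean CPM of at least 1, no overlap), 3 each from 6 h to 72 h, up to 4 with opposite calls, 2 on each side of the limit and the farthest; examples of these are printed. Named deserts were the 10 with most sites and the 5 largest rises and falls among those with at least 5 sites. The centromere split uses approximate, hand-listed centromere positions; it and the strongest arm sites and arm deserts were added after values were seen. Libraries of 1 time differed beyond sampling noise (chi-square per degree of freedom 5.53, 4.69 and 3.54), so none was merged. Labels share replicate numbers, but 2 numbers do not show pairing.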

Additional observations from a re-analysis of the deposited data

Results flagged for a closer look

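Of the 24 desert sites called in opposite directions at 6 h and at 72 h, 18 were lower at 6 h and higher at 72 h. Such sites were not counted over the whole table. From the 24 desert sites, 4 are given, those where the smaller of the 2 log2 changes was largest in size. The 2 times share the 0 h libraries, and the change from 6 h to 72 h was also tested. Sites chosen in this way rise from 6 h to 72 h by selection, so the p-values of that test are no separate support. All 4 are weak sites. Peak39961 (chr12:28816244-28816789, between CCDC91 and FAR2) had 0.455 and 0.526 CPM at 0 h, 0.170 and 0.0632 at 6 h, then 2.85 and 2.264 at 72 h, a log2 change from 6 h of 4.69 (edgeR adjusted p = 2.82e-06). Its 6 h call was lost without 0 h library 2 (adjusted p = 0.0695) or 6 h library 2 (0.245).

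Peak65280 (between N4BP1 and CBLN1) had 0.520 and 0.478 CPM, then 0.256 and 0.0316, then 2.15 and 1.39, a log2 change from 6 h of 4.13 (edgeR adjusted p = 5.05e-05). Its 6 h call was lost without 0 h library 1 (0.0574), 0 h library 2 (0.0667) or 6 h library 2 (0.449), and its 72 h call without 72 h library 1 (0.0783).

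Peak44945, in the TBX3 to MED13L desert, had 0.715 and 1.099 CPM, then 0.256 and 0.253, then 2.85 and 2.90, a log2 change from 6 h of 3.48 (edgeR adjusted p = 5.81e-06). Its 6 h call was lost without 0 h library 2 (0.0999) or 6 h library 2 (0.0802).

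Peak79561 (between NETO1 and FBXO15) had 0.585 and 0.287 CPM, then 0.170 and 0, then 1.42 and 1.20. The fitted log2 change from 6 h was 4.64, a 28.3-fold ratio with an exact 95% counting interval of 7.66 to 237, and it was 8.29 without 6 h library 1 and 2.96 without 6 h library 2. Its 6 h call was lost without 0 h library 1 (0.108) or 6 h library 2 (0.377), and its 72 h call without 0 h library 2 (0.143), 72 h library 1 (0.108) or 72 h library 2 (0.0571).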

How the results depend on the processing

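Of 1162 values for named sites under alternatives, 1102 either kept direction and side of the threshold or were called in neither setting, whatever the sign. The same held for 425 of 460 values for named deserts. Signs that turned where neither setting gave a call are not listed below. Scaling mattered most, and the cause was not tested. With TMM factors from sites with a peak in all 6 libraries, the sites lower were 772 at 6 h, 618 at 72 h and 179 from 6 h to 72 h (4340 higher); deserts lower were 55, 28 and 5, and deserts higher 407 at 72 h and 387 from 6 h to 72 h. Scaled to total counts, 1301 sites were lower at 72 h and 406 from 6 h to 72 h, and 83, 85 and 24 deserts in the 3 comparisons. The stricter threshold left 652 lower at 6 h and 333 from 6 h to 72 h, and DESeq2 called 1581 higher from 6 h to 72 h. With a limit of 500 kb, 13.7% of sites were higher at 6 h, 26.6% higher and 42.8% lower at 72 h, and 17.4% higher from 6 h to 72 h.

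Leaving out 1 library gave 798 to 1362 lower at 6 h, 1438 to 2248 lower at 72 h, 1575 to 2796 higher and 414 to 1054 lower from 6 h to 72 h, and 64 to 112 deserts lower from 6 h to 72 h. Without 6 h library 2 the MYO16 to IRS2 desert had a log2 change of 0.55 at 6 h, and leaving out other libraries gave values down to -1.01. Mean shares of peaks in deserts at 0, 6 and 72 h were 3.88%, 3.63% and 4.68% at a −log10 q of at least 5, and 3.89%, 3.48% and 3.78% in equal lists.

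Signs turned with loess offsets at 6 h for peak105735 (0.14), peak49676 (0.87), peak152173 (0.16), peak117233 (0.033) and peak19509 (0.47), and at 72 h for peak105735 (1.82), peak117319 (0.48), peak49676 (0.69), peak152173 (0.15), peak117233 (0.093), peak19509 (0.47), peak140911 (1.29), peak42658 (0.34) and peak130573 (0.34). At 72 h they turned with total counts for peak140911 (0.35), MYC to GSDMC (0.39) and MCTP2 to NR2F2 (0.064), and with the shared-peak factors for peak140911 (0.82), peak42658 (0.071), MYC to GSDMC (0.85), ZNF254 to UQCRFS1 (0.37), KCNJ18 to WSB1 (0.19), ZNF337 to LOC124904970 (0.19) and MCTP2 to NR2F2 (0.53).

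With the replicate block, 1931 sites were higher and 1357 lower at 6 h, 3803 and 2191 at 72 h, and 2517 and 1072 from 6 h to 72 h; deserts were 170 and 152, 267 and 175, and 208 and 109. Libraries sharing a number had deviations correlated at 0.153, 0.0885 and 0.135, over 2 numbers only, so the samples share only a number. Low counts limit single sites, most of all at 0 h and in 6 h library 1.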
